A study of Mus musculus with 4 samples.

Results

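The protocadherin genes of the mouse were described here in the lumbar spinal cord after a nerve injury. They were chosen as every protein-coding gene whose symbol starts with Pcdh, after the deposited Entrez gene identifiers had been matched to mouse symbols, which gave 69 of 27179 identifiers. Of these, 14 belong to the Pcdha cluster, 22 to the Pcdhb cluster and 21 to the Pcdhg cluster, and 12 stand alone in the genome. The transcribed pseudogene Pcdhgb8, with 26 to 64 reads per library, was left out because it is not protein-coding.

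The libraries were poly(A) RNA-seq of spinal cord at levels L4 to L6 from male C57BL/6J mice, 28 days after surgery on the sciatic nerve. The titles put 2 libraries in the cuff group, in which a cuff around the nerve constricts it and models lasting neuropathic pain, and 2 in the sham group, which had the control operation. The labels give no other allele or agent, no age, and no statement that the libraries came from separate animals, so p-values measure the spread between these libraries only. The deposited files carry in their names the opposite condition to the titles for all 4 libraries, so groups are called cuff-labelled and sham-labelled, and each direction would turn if the file names were right.

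Protocadherins are cadherin-type membrane proteins through which neighbouring cells recognise each other, and most are found in the nervous system. The Pcdha, Pcdhb and Pcdhg genes lie in tandem on chromosome 18. In Pcdha and Pcdhg each gene is a variable first exon with its own promoter, spliced to constant exons that encode a common cytoplasmic end, while Pcdhb genes have no constant exons. Neurons choose a few variable promoters each, which gives a cell a surface identity used in self-avoidance of its branches and in the survival of spinal interneurons. The non-clustered genes are ordinary genes, sorted by their cytoplasmic motifs into the delta1 type (Pcdh1, Pcdh7, Pcdh9, Pcdh11x), the delta2 type (Pcdh8, Pcdh10, Pcdh17, Pcdh18, Pcdh19) and others (Pcdh12, Pcdh15, Pcdh20).

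Gene counts summed to between 32936609 and 39461573 per library, of which protocadherins took 0.0862% and 0.0788% in the cuff-labelled libraries and 0.0936% and 0.115% in the sham-labelled ones. The second cuff-labelled library also held the highest levels of skeletal muscle, Schwann cell, sensory ganglion and leptomeningeal markers. Its 4 muscle markers summed to 385 CPM (reads scaled by TMM to a library total of 1000000) against 52.1 to 109 in the other libraries, and its 6 sensory ganglion markers to 20.2 CPM against 0.732 to 1.41. Scn10a, the sodium channel of nociceptors, was at 6.24 CPM there and at 0 in the other 3. The 5 neuron markers, led by the synaptic gene Snap25, summed to 3702 and 3427 CPM in the cuff-labelled libraries and to 3881 and 3680 in the sham-labelled ones. Most of that sum was Snap25, and other members went opposite ways without overlap, none of them called. Slc17a6, the transporter of excitatory neurons, was at 235 and 208 against 286 and 300.2 CPM, the nuclear marker Rbfox3 at 163 and 182 against 137 and 139 CPM, and Slc32a1, the transporter of inhibitory neurons, at 182 and 206 against 159 and 167 CPM. The 4 astrocyte markers summed to 2184 and 1798 against 2713 and 2345 CPM. Of these the water channel Aqp4 fell (593 and 463 against 824 and 811 CPM, log2 fold change -0.63, edgeR adjusted p = 0.0248), while Aldh1l1 was at 67.5 and 72.7 against 66.8 and 67.3 CPM. The part of these marker differences in the results on protocadherins was not tested. In bulk tissue, fewer cells of a type and less RNA per cell cannot be told apart.

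Most protocadherin genes had lower counts in the cuff-labelled libraries, but few passed the test across all genes. Of 66 members with enough counts to test, 3 fell (Pcdh11x, Pcdh7 and Pcdhb8) and 0 rose at an adjusted p under 0.05 in edgeR's quasi-likelihood test, where 2.96% of all 16918 genes tested fell and 1.15% rose, 4.11% in either direction. The log2 fold change, cuff-labelled minus sham-labelled, was below 0 for 59 of the 66 members, against 47.9% of all genes, and its median was -0.41 against 0.02. Both cuff-labelled libraries lay under both sham-labelled ones for 46 members, against 25.9% of all genes, and above both for 0 members, against 28.2% of all genes. At an unadjusted p under 0.05, 20 members were lower, against 11.7% of all genes, and 0 were higher, against 9.74%. DESeq2 and limma-voom also called 0 members higher.

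The members did not spread evenly over the libraries. The second sham-labelled library was the highest of the 4 for 50 of 66 members, and the second cuff-labelled library was the lowest for 42. The same counts were not taken over all genes. Without the second sham-labelled library, 55 members were below 0 and their median was -0.29, and without the second cuff-labelled library these were 61 members and -0.33. Over all genes the medians in these fits were 0.03 and -0.0019. Without the first cuff-labelled library, 9 clustered members were called lower, and 4 non-clustered ones (Pcdh7, Pcdh9, Pcdh11x and Pcdh20), in a fit that called 1214 of all 17404 genes lower and 714 higher. With any other library left out, fewer of all genes were called than with all 4, and few or none with either sham-labelled library left out. Whether the missing calls of members in those fits are particular to protocadherins was not tested. Without the second cuff-labelled library the log2 fold change of Pcdh11x was -1.57.

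**Figure D1:**
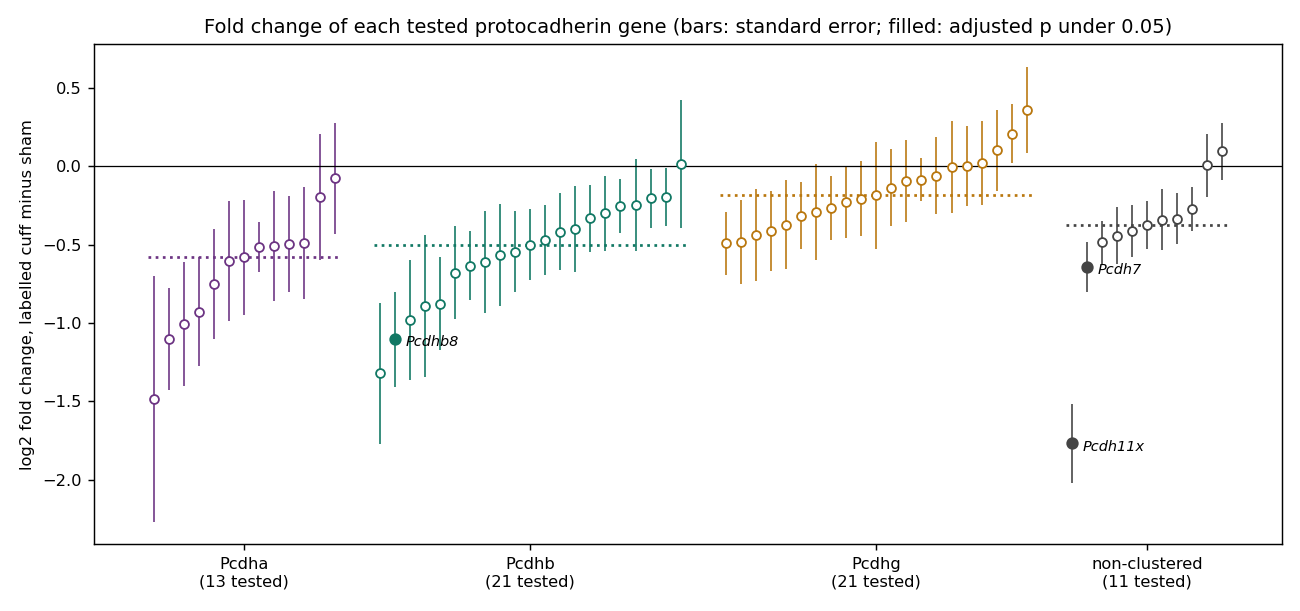
The log2 fold change of each of the 66 tested protocadherin genes (points, vertical axis) is shown with its standard error, sorted within each group, with the group median as a dotted line. Filled points mark the 3 genes with an adjusted p under 0.05, and 59 points lie under the line at 0.

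Pcdh11x, a delta1 protocadherin on the X chromosome (Entrez gene 245578, X:120290238-120910622 of GRCm38.p6, + strand), showed the largest fall among the members called. Its level was 3.49 and 2.61 CPM in the cuff-labelled libraries and 8.76 and 12.05 CPM in the sham-labelled ones. Both cuff levels were far below both sham levels, with no overlap. The counts behind them were 126 and 89 reads against 335 and 465 reads. This was a log2 fold change of -1.77 ± 0.25 (SE), a cuff level of 0.294 times that of sham, with an adjusted p of 0.00212 in edgeR. Without the first or the second sham-labelled library the log2 fold change was -2.00 and -1.52. The call was lost there, in fits that called few or none of all genes. The call was also lost with library-wise offsets for the length and the GC content of transcripts, the length and GC correction, which gave -1.21 with an edgeR adjusted p of 0.0565.

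Pcdh7, the delta1 protocadherin also known as NF-protocadherin, whose frog orthologue acts in retinal axon growth (Entrez gene 54216, 5:57716145-58133236, + strand), was at 104 and 76.5 CPM in the cuff-labelled libraries and at 128 and 154 CPM in the sham-labelled ones. The groups did not overlap. It fell by 0.64 ± 0.16 (SE) on the log2 scale, with an edgeR adjusted p of 0.0348. After the length and GC correction its log2 fold change was -0.31, with an edgeR adjusted p of 0.168. Over the fits that left out 1 library, its log2 fold change ran from -0.93 to -0.44. The call held only without the first cuff-labelled library, the fit with the most calls over all genes.

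Pcdh9, a delta1 gene of cortical and sensory neurons and the protocadherin with the highest level per length here, missed the threshold in edgeR (Entrez gene 211712, 14:93013700-93892834, - strand). Its level was 181 and 146 CPM against 225 and 234 CPM, without overlap. Its estimate of -0.48 ± 0.14 (SE) on the log2 scale had an edgeR adjusted p of 0.0543, and it was -0.15 after the length and GC correction. DESeq2 called Pcdh9 (adjusted p = 0.0128), as did edgeR without the filter on low counts (adjusted p = 0.0206). The fourth delta1 gene, Pcdh1, known from airway epithelium as well as brain, was at 22.0 and 23.8 CPM against 17.4 and 28.1 CPM. Here the sham libraries lay on either side of the cuff libraries, and the log2 fold change was 0.01 ± 0.20 (SE), or -0.01 with RLE scaling.

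The promoters of the non-clustered members with the highest levels per length, Pcdh7, Pcdh9, Pcdh10 and Pcdh17, are printed because these 4 genes supplied between 49.1% and 54.7% of the protocadherin counts in each library. Each window runs from 250 bases before to 50 bases after a start listed in RefSeq's promoter table (GRCm38.p6) and is written 5′ to 3′ on the gene's strand, with capitals on the motif CCAAT or its reverse complement ATTGG. The windows are chr5:57717831-57718130 (+) for Pcdh7, chr14:93890630-93890929 (-) for Pcdh9, chr3:45378148-45378447 (+) for Pcdh10 and chr14:84443313-84443612 (+) for Pcdh17. Those of Pcdh7 and Pcdh9 lie inside the gene spans given above, and Pcdh9 has 2 nearly coincident windows, of which the first is shown.

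Pcdh7: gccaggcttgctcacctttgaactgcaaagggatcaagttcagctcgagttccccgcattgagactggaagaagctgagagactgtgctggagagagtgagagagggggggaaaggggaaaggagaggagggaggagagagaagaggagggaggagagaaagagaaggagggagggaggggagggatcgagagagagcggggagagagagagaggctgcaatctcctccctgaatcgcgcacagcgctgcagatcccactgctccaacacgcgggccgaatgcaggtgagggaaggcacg

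Pcdh9: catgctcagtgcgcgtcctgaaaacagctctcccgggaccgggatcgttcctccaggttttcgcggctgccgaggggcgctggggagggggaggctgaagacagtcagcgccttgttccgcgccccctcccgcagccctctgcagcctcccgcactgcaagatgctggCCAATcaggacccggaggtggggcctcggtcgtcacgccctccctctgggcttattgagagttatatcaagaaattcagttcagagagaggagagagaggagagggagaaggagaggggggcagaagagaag

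Pcdh10: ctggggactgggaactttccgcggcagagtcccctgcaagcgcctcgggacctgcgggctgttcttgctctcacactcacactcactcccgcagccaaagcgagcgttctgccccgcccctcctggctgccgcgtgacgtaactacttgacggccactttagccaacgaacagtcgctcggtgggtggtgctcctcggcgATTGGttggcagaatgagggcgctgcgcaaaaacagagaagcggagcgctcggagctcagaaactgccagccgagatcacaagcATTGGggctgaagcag

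Pcdh17: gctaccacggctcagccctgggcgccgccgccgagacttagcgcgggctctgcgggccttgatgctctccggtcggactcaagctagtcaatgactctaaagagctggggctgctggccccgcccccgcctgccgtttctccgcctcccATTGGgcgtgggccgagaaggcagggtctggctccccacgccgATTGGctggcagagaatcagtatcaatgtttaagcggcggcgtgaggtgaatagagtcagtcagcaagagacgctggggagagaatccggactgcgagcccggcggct

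CCAAT is the box that the factor NF-Y binds in many promoters, and a match is a description, not a site. On either strand it was present in 8 of the 9 protocadherin genes with a window outside chromosome 18, and in 37.4% of all 32851 windows of this length. The window of Pcdh7 held none. The windows of Pcdh7, Pcdh9, Pcdh10 and Pcdh17 had GC contents of 59.3%, 62.7%, 62.3% and 65.0%, against a median of 52.7% over all windows. Each was far richer in GC than its own transcript, at 45.8%, 42.6%, 43.5% and 45.6%.

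None of the 5 delta2 genes passed the test in edgeR or DESeq2, where edgeR called 4.11% of all genes. At an unadjusted edgeR p under 0.05, 1 (Pcdh17) was lower (20%), against 11.7% of all genes. Both cuff levels lay under both sham levels for 4 delta2 genes (25.9% of all genes, and 53.0% of the tenth with the longest transcripts). Pcdh10, which links to the actin-regulating WAVE complex and helps axons and synapses form, was at 92.7 and 82.2 CPM against 94.1 and 117 CPM, with a log2 fold change of -0.27 ± 0.14 (SE) and an edgeR adjusted p of 0.270. Pcdh17, a synaptic protein of corticobasal circuits, was at 79.0 and 68.0 CPM against 80.7 and 110 CPM, with a log2 fold change of -0.37 ± 0.15 (SE) and an edgeR adjusted p of 0.171. In both genes the first library of each group differed little and the second sham library stood highest. After the length and GC correction, the log2 fold changes of Pcdh10 and Pcdh17 turned to 0.11 and 0.05.

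Pcdh19, the gene whose human orthologue is mutated in an X-linked epilepsy, was at 23.9 and 20.6 CPM against 24.2 and 31.9 CPM. Its log2 fold change of -0.33 ± 0.16 (SE) had an edgeR adjusted p of 0.237. Its first sham-labelled library was only slightly above its first cuff-labelled one, and after the length and GC correction the estimate was -0.0082. Pcdh18, which binds the adaptor Dab1, was at 8.48 and 7.94 CPM against 9.41 and 11.4 CPM (log2 fold change -0.34 ± 0.20, SE). Pcdh8, also called arcadlin and known to take up N-cadherin from synapses after activity, was at 11.9 and 13.9 CPM against 10.6 and 13.4 CPM. Its groups overlapped and its log2 fold change was 0.09 ± 0.18 (SE).

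Of the other non-clustered genes, Pcdh15, a tip-link protein of inner-ear hair cells, was at 22.2 and 19.2 CPM against 23.2 and 32.0 CPM, with a log2 fold change of -0.41 ± 0.17 (SE) and an edgeR adjusted p of 0.160, and of -0.034 after the length and GC correction. Pcdh20 was at 13.2 and 9.96 CPM against 15.4 and 16.0 CPM, with a log2 fold change of -0.44 ± 0.18 (SE) and an edgeR adjusted p of 0.162. Neither overlapped between the groups. Pcdh12, an endothelial protocadherin, had 4 and 25 reads in the cuff-labelled libraries and 2 and 2 in the sham-labelled ones, too few to test with all libraries. Most of its reads were in the second cuff-labelled library. The 4 endothelial markers all rose, led by the tight-junction gene Cldn5 (23.8 and 25.8 against 7.06 and 9.48 CPM, log2 fold change 1.58), and summed to 75.6 and 79.4 against 38.1 and 45.8 CPM. Their part in the counts of Pcdh12 was not tested.

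**Figure D2:**
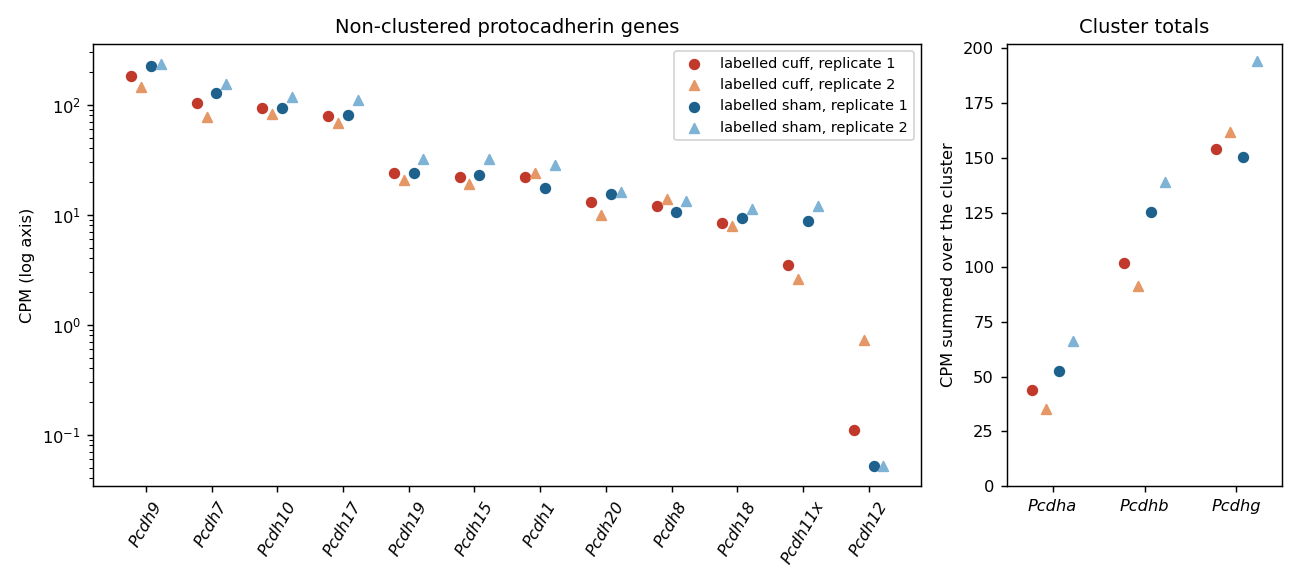
CPM of each non-clustered protocadherin gene in the 4 libraries (left, log axis) and CPM summed over each cluster (right, linear axis from 0). Circles are replicates 1 and triangles replicates 2, red and orange for labelled cuff and blue for labelled sham. On the log axis Pcdh11x shows the widest gap between the groups among the tested non-clustered genes, from 3.49 to 8.76 CPM. The Pcdhg totals overlap.

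Per kilobase of the longest GENCODE transcript, the non-clustered genes spanned a wide range of mean levels over the 4 libraries. Pcdh9 stood first at 30.1 CPM per kilobase, before Pcdh7 at 13.2, Pcdh10 at 11.7 and Pcdh17 at 7.36. Pcdh1 followed at 4.22, and Pcdh8, Pcdh15, Pcdh20 and Pcdh19 lay close together between 2.44 and 2.75. Pcdh7 and Pcdh10 had overlapping ranges over libraries, at 8.71 to 17.5 and 9.98 to 14.2 CPM per kilobase. Pcdh18 at 1.80, Pcdh11x at 0.739 and Pcdh12 at 0.0427 CPM per kilobase closed the order, so the gene with the largest fall was among the least abundant. The non-clustered genes together held between 62.0% and 66.0% of the protocadherin counts of a library, Pcdhg 15.6% to 21.3%, Pcdhb 11.8% to 13.0% and Pcdha 4.64% to 5.73%.

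Counts of the clustered genes depend on how reads in shared exons were treated, a step not given in the sources used here. All 13 Pcdha genes with an exon model shared exon bases with other genes, over a median of 53.5% of their exon bases (28.5% to 57.4%). The same held for all 21 Pcdhg genes (median 44.6%, 27.8% to 66.8%), for 2 of 22 Pcdhb genes and for 0 of 12 non-clustered genes. Levels per kilobase of Pcdha and Pcdhg genes are understated where reads on constant exons were left unassigned, and reads of close paralogues may have been lost or split. Summed counts per cluster were therefore also tested, each sum replacing its members in the fit.

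The Pcdha cluster as a whole fell. Its summed level was 43.8 and 35.3 CPM in the cuff-labelled libraries and 52.8 and 66.4 CPM in the sham-labelled ones, without overlap. The sum changed by -0.59 ± 0.15 (SE) on the log2 scale, with an edgeR adjusted p of 0.0358 over 16866 genes and sums. With the length and GC correction it was -0.46 (edgeR adjusted p = 0.101). Of the fits that left out 1 library, only that without the first cuff library kept the call (-0.81). Leaving out that library also gave the most calls over all genes. No Pcdha gene passed the test alone in edgeR with all libraries and the filter on low counts, or in DESeq2. In that edgeR fit 2.96% of all genes were called lower. Lower at an unadjusted edgeR p under 0.05 were 5 (38.5%), against 11.7% of all genes. Of the 10% of genes with the longest transcripts 40.3% were, but these have a median length of 8251.5 bases, against 5341 for tested Pcdha genes. The share among genes of the length of Pcdha was not taken. The deciles with median lengths of 4718.5 and 5768 bases had median log2 fold changes of -0.05 and -0.12. Without the filter on low counts edgeR called Pcdha12 and Pcdhac2, in a fit that called 849 of all 21414 genes lower. Without the first cuff library it called these and Pcdha6. In the filtered fit of all libraries, all 13 tested were below 0, against 47.9% of all genes, with a median of -0.58. Both cuff levels lay under both sham levels in 12 of them, against 25.9% of all genes. Pcdha4, with 2 reads in 1 library, was not tested.

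Among the variable Pcdha genes, Pcdha12 had the highest level per length. It was at 3.47 and 1.73 CPM against 4.92 and 6.24 CPM, without overlap, with a log2 fold change of -1.10 ± 0.33 (SE) and an edgeR adjusted p of 0.0678. Pcdha8 had the most negative estimate of the cluster, -1.48 ± 0.78 (SE), from 9 and 3 reads against 12 and 25 reads, and its edgeR adjusted p was 0.279. Pcdhac2, a C-type gene that serotonergic neurons need for the spacing of their axons, supplied 46.0% of the Pcdha counts. It was at 19.7 and 17.6 CPM against 23.2 and 30.1 CPM, with a log2 fold change of -0.51 ± 0.16 (SE) and an edgeR adjusted p of 0.0768. Its share of the cluster was 45.0% and 49.8% in the cuff-labelled libraries and 43.9% and 45.4% in the sham-labelled ones, so the shares overlapped.

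Pcdhb genes were close to Pcdha in their median change, and Pcdhb8 was the only clustered gene called by edgeR with all libraries and the filter on low counts. That was 1 of 55 tested clustered genes (1.82%), under the 2.96% of all genes called lower. Pcdhb8 (Entrez gene 93879, 18:37355271-37357610, + strand) was at 1.94 and 1.99 CPM in the cuff-labelled libraries and at 4.05 and 4.40 CPM in the sham-labelled ones. The libraries of each group nearly coincided and the groups were far apart. It fell by 1.10 ± 0.30 (SE) on the log2 scale, from 68 to 70 reads against 155 to 170 reads per library, with an edgeR adjusted p of 0.0488. After the length and GC correction the log2 fold change was -1.05 and the edgeR adjusted p 0.111. Of the fits without 1 library, only that without the first cuff library, which had the most calls over all genes, called it. Its estimates over these fits ran from -1.18 to -1.05.

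The median log2 fold change of the 21 tested Pcdhb genes was -0.50, against 0.02 over all genes. Of these Pcdhb genes 20 were below 0, against 47.9% of all genes. Both cuff levels lay under both sham levels for 19 of them, against 25.9% of all genes. Pcdhb2 had the most negative estimate, at 1.25 and 0.586 CPM against 1.70 and 2.90 CPM (-1.32 ± 0.45, SE, edgeR adjusted p = 0.0992). Pcdhb9, which had the highest level per length of the cluster, was at 9.43 and 8.91 CPM against 10.5 and 10.5 CPM (-0.20 ± 0.19, SE). Pcdhb4, at 1.28 and 1.70 CPM against 1.62 and 1.32 CPM, was the only Pcdhb gene above 0 (0.01), and with RLE scaling or DESeq2 it lay just below 0. The summed level was 102 and 91.4 CPM against 125 and 139 CPM, without overlap, and the log2 fold change of the sum was -0.45 ± 0.13 (SE), with an edgeR adjusted p of 0.0607. DESeq2 called this sum (adjusted p = 0.0163). Pcdhb1, with 0 to 4 reads per library, was not tested.

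In the Pcdhg cluster neither a gene nor the sum passed the test in edgeR or DESeq2. For comparison, edgeR called 4.11% of all genes. At an unadjusted edgeR p under 0.05, 1 Pcdhg gene was lower (4.76%), against 11.7% of all genes. The summed level was 154 and 162 CPM in the cuff-labelled libraries and 150 and 194 CPM in the sham-labelled ones, so the groups overlapped. For the sum the log2 fold change was -0.12 ± 0.14 (SE), with an edgeR adjusted p of 0.655, and without the second sham library it was 0.07. Of 21 genes, 17 were below 0, against 47.9% of all genes, with a median of -0.19. The groups did not overlap for 6 (28.6%), near the 25.9% of all genes. Whether the clusters differ from each other in their change was not tested.

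The 12 A-type and 6 B-type genes of Pcdhg had median log2 fold changes of -0.12 and -0.39. Pcdhga11, the A-type gene with the highest level per length, was at 9.73 and 9.23 CPM against 9.47 and 13.3 CPM. The lowest A-type estimate was that of Pcdhga7, at 8.37 and 7.76 CPM against 9.75 and 12.9 CPM (-0.49 ± 0.20, SE, edgeR adjusted p = 0.167), and the highest that of Pcdhga2, at 5.49 and 5.04 CPM against 4.13 and 5.67 CPM (0.10 ± 0.26, SE). Among the B type, Pcdhgb6 led in level per length, at 7.71 and 9.17 CPM against 8.52 and 12.5 CPM. Pcdhgb2 had the lowest B-type estimate, at 3.94 and 3.81 CPM against 4.60 and 6.24 CPM (-0.49 ± 0.27, SE, edgeR adjusted p = 0.306). The B type made up 17.2% and 16.7% of the Pcdhg counts in the cuff-labelled libraries and 20.2% and 20.3% in the sham-labelled ones.

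The C-type genes of Pcdhg are expressed outside the random choice of variable promoters, and Pcdhgc3 and Pcdhgc4 had the highest levels per length of that cluster, while Pcdhgc5 lay among the variable genes. Pcdhgc3, which promotes dendrite branching in cortical neurons, was at 37.0 and 33.8 CPM against 36.5 and 38.6 CPM, and at a mean of 7.78 CPM per kilobase. Its log2 fold change was -0.08 ± 0.13 (SE). Pcdhgc4, the isoform on which the survival of neurons depends, was at 16.1 and 20.8 CPM against 13.2 and 18.7 CPM (0.21 ± 0.19, SE). Pcdhgc5, which binds GABA(A) receptors, had the highest estimate of all members, at 7.18 and 8.23 CPM against 4.16 and 7.85 CPM (0.36 ± 0.28, SE, edgeR adjusted p = 0.486). These C-type genes all overlapped between the groups, while the C-type share of the Pcdhg counts was 39.1% and 38.8% against 35.8% and 33.6%.

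**Figure D3:**
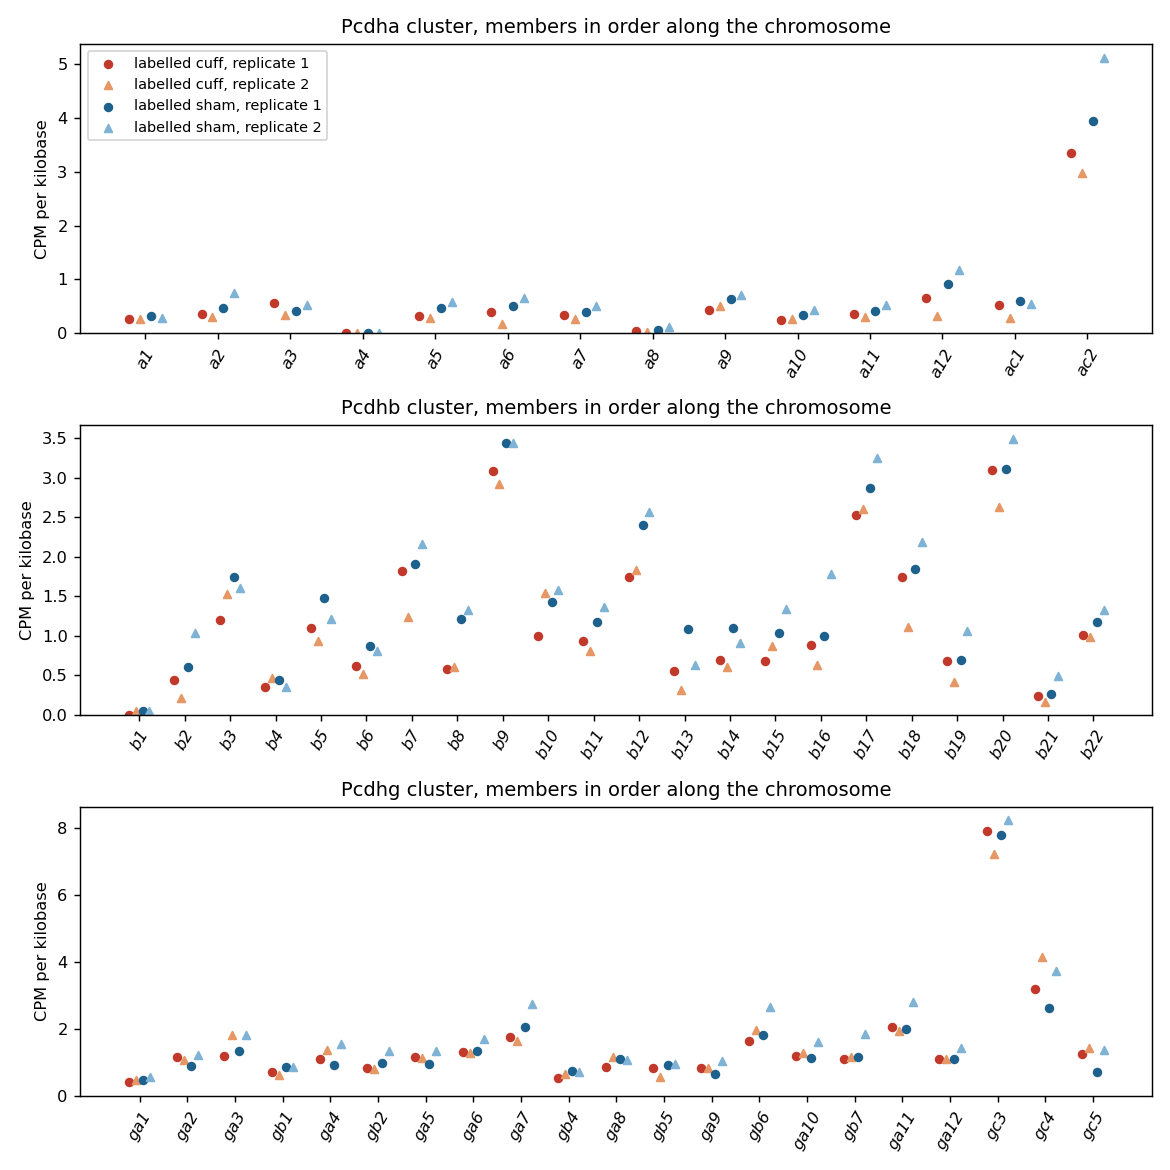
CPM per kilobase (vertical axis) of every Pcdha, Pcdhb and Pcdhg gene in the 4 libraries, in the order of the genes along the chromosome. Pcdhac2 and Pcdhgc3, at means of 3.85 and 7.78 CPM per kilobase, stand above the variable genes of their clusters, and Pcdhb levels have no single leading gene.

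Members differed in their change along with the base composition of their transcripts. Over the 66 tested members, the rank correlation of log2 fold change with transcript GC content was 0.52 and that with transcript length -0.17, given as descriptions because the genes share the same 4 libraries. Pcdhg transcripts had a median GC content of 53.1%, Pcdha 47.3%, Pcdhb 46.0% and non-clustered genes 45.5%, and Pcdh11x stood at 36.3%. The same trend ran through all genes. The tenth of genes with the lowest GC content had a median log2 fold change of -0.26, that with the highest GC content 0.28, and that with the longest transcripts -0.27.

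After the correction for length and GC content, 59 of the 66 members were below 0, and their median was -0.28. Over all genes the median in that fit was 0.0095, and the share below 0 was not taken. The medians were -0.43 for Pcdha, -0.35 for Pcdhb, -0.22 for Pcdhg and -0.15 for the non-clustered genes, and the rank correlation with GC content was 0.02. No member passed edgeR's test in that fit, in which 23 genes of all were called lower. Which of the uncorrected and corrected values is nearer to the RNA content of the tissue was not tested.

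**Figure D4:**
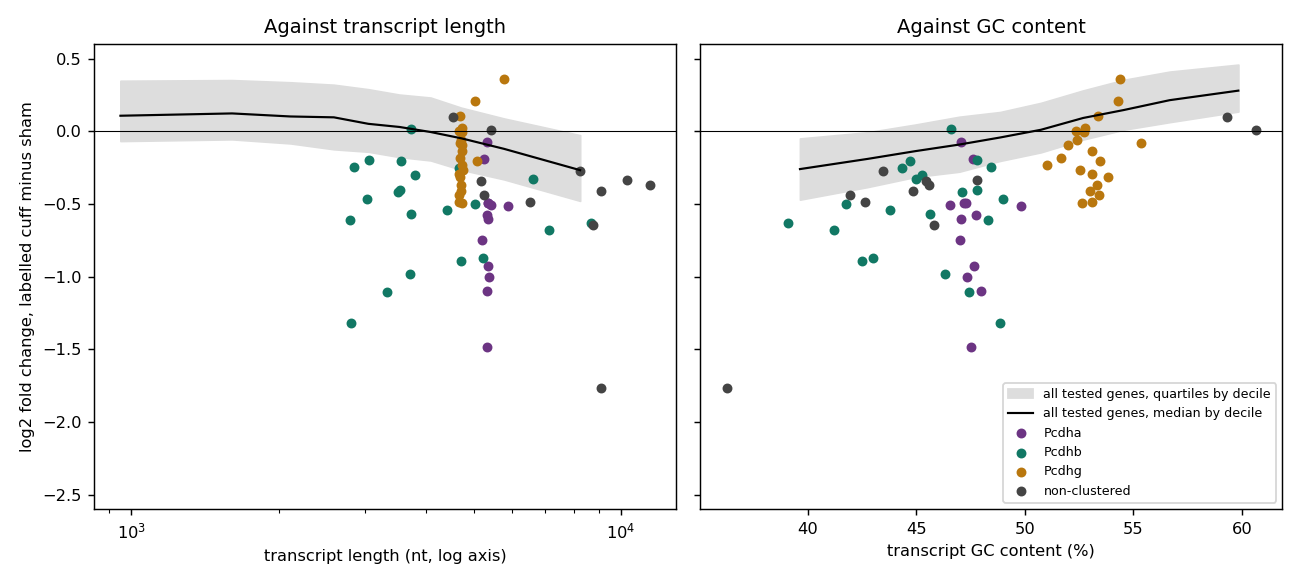
The log2 fold change of each tested protocadherin gene (coloured points) is plotted against the length of its longest transcript (left, log axis) and its GC content (right), over the median and quartiles of all tested genes by decile (line and grey band). The line falls to -0.27 in the longest decile and rises from -0.26 to 0.28 with GC content, and most Pcdha and Pcdhb points lie under it.

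Genes that act on or with protocadherins were read from the same fit. Of 19 tested regulators of promoter choice in the clusters, most of them CTCF, cohesin and DNA methylation genes, 3 fell and 0 rose, against 2.96% and 1.15% of all genes, with a median log2 fold change of -0.23. Of the decile of genes with the longest transcripts 14.2% fell, and of that with the lowest GC content 11.4%, and these regulators had a median transcript length of 6186 bases and a median GC content of 44.3%. Those that fell were the cohesin loader Nipbl (41.5 and 30.1 against 49.8 and 62.9 CPM, -0.65), the cohesin regulator Pds5a (28.9 and 20.2 against 35.7 and 43.6 CPM, -0.69) and the cohesin subunit Stag2 (72.9 and 59.7 against 96.1 and 95.1 CPM, -0.53). Their edgeR adjusted p-values were 0.0476, 0.0433 and 0.0373. Ctcf itself was at 58.8 and 57.2 against 55.3 and 61.0 CPM, with overlapping groups.

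Of 19 tested cytoplasmic partners, 2 fell and 0 rose, against the same 2.96% and 1.15% of all genes. These were Wasf3, a WAVE protein that drives actin branching (45.7 and 35.2 against 61.3 and 70.4 CPM, log2 fold change -0.70, edgeR adjusted p = 0.0164), and Adam10, the protease that sheds cadherin ectodomains (48.1 and 43.6 against 59.9 and 74.2 CPM, -0.55, edgeR adjusted p = 0.0362). The groups did not overlap for either gene.

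In the wider cadherin family, 2 of 19 tested classical cadherins fell and 0 rose, where 2.96% of all genes fell and 1.15% rose. Cdh8, a cadherin of excitatory synapses, was at 25.8 and 28.0 against 37.6 and 39.0 CPM (-0.51, edgeR adjusted p = 0.0438), and Cdh19, a glial cadherin, at 22.5 and 19.3 against 32.4 and 35.1 CPM (-0.69, edgeR adjusted p = 0.0173). Of 8 tested genes listed as large cadherins, which include Fjx1, not itself a cadherin, 1 fell (12.5%). This was Fat3, which shapes dendrites of retinal amacrine cells (41.8 and 35.5 against 53.4 and 78.6 CPM, -0.77, edgeR adjusted p = 0.0370). The genes of this list had a median transcript length of 11225 bases and a median GC content of 58.1%. Of the tenth of genes with the longest transcripts 14.2% fell, and of that with the highest GC content 0.183%. Of 3 calsyntenins 0 were called by edgeR, and 0 had an unadjusted p under 0.05. The median log2 fold change was -0.21 for classical cadherins and 0.12 for the large cadherin list.

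Of 18 genes without a Pcdh name that lie near the clusters on chromosome 18, 0 were called by edgeR. At an unadjusted edgeR p under 0.05, 3 of the 18 were higher, against 9.74% of all genes. The median log2 fold change of the 18 was 0.13, against 0.02 over all genes. Their transcripts had a median length of 2204 bases and a median GC content of 52.1%. The decile of all genes with a median length of 2113.5 bases had a median log2 fold change of 0.10. In the decile with a median GC content of 52.7% it was 0.09. The smallest p was that of Arap3, at 7.99 and 9.76 against 4.42 and 6.17 CPM (0.74, edgeR adjusted p = 0.0785). Taf7, which lies between the Pcdhb and Pcdhg genes, was at 16.0 and 14.2 against 20.3 and 16.2 CPM (-0.27).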

How the data were processed

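Total RNA of 4 spinal cord libraries was poly(A)-selected, made into strand-specific libraries and sequenced as read pairs, per the labels' protocols. Reads were trimmed with Trimmomatic 0.30, aligned to mm10 with HISAT2 2.0.1 and assigned to genes by featureCounts, as the submitters' processing notes list them. Annotation, strand setting and unit counted (reads or pairs) were not given in the sources used here. Raw counts by Entrez identifier were deposited, and in 1 file a backslash and a letter in place of the tab had to be split. Symbols for 25275 of 27179 identifiers, coordinates and promoter windows came from RefSeq tables of GRCm38.p6, and transcript lengths, GC contents and exon overlaps from GENCODE M21.

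Groups and replicate numbers came from the titles. Counts were filtered with filterByExpr, scaled by TMM and tested in R 4.3.3 with edgeR 4.0.16 (two-sided quasi-likelihood F test with robust dispersion and no covariate besides group), with Benjamini-Hochberg adjustment over all 16918 genes and a threshold of 0.05. CPM values use TMM-scaled totals. The 6 pairs of libraries differed beyond counting noise (chi-square per degree of freedom 24.3 to 68.9). Counting errors and floors aside, precision rests on 2 libraries per group and a common biological coefficient of variation of 0.152. On simulated counts for this comparison (16707 genes, 200 changed), the share recovered was 32.8% at 1.5-fold, 70.1% at 2-fold and 98.5% at 4-fold, with 13 unchanged genes called. The changed genes were drawn above a floor of mean CPM, and the trend with length and GC content was not simulated. Tested members had a median of 5.67 CPM, against 18.4 over all genes, and recovery at their levels was not taken separately.

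Alternatives were RLE scaling, DESeq2 1.42.0, limma-voom (limma 3.58.1), other filters, the replicate number as a block, a local regression on transcript length and GC content, and each library left out. Named were all members called, all non-clustered members, and in each cluster type the member with the highest level per length and those with the extreme log2 fold changes. In the other lists the called genes were named, or the gene with the smallest p. Pcdhgc4, Pcdha6, Ctcf, Taf7, Scn10a and the neuronal and Aldh1l1 marker values were added after their values were seen. The members and lists were chosen with earlier results of these data known.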

Additional observations from a re-analysis of the deposited data

How the results depend on the processing

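Over 25 members and 12 alternatives, 252 of 300 values kept their direction and their side of the threshold, 18 lost a call, 9 gained one and 21 changed sign. Only the 3 members called could lose a call in an alternative. Most of the 252 values were of members called in neither fit, so that count does not measure how well the calls held. Without a filter, 849 genes of all were lower and 443 higher, and with DESeq2 814 were lower. With limma-voom these were 113 and 34, and with the length and GC correction 23 and 13. The replicate numbers are shared only as numbers (correlation of same-numbered deviations 0.116 over 2 pairs). With them as a replicate block, 309 genes were lower and 245 higher, and with the block and the length and GC correction 236 were lower and 261 higher, against 501 and 195 as reported. Clustered members called lower numbered 4 without a filter and 0 with limma-voom, a mean count of at least 10, the block, the length and GC correction, or both together. Non-clustered members called lower numbered 3 with DESeq2 and without a filter (Pcdh9 gained), 1 with limma-voom and 1 with the block (Pcdh7 lost, adjusted p = 0.0750 and 0.0679), 0 with the length and GC correction and 1 with both (Pcdh11x, -1.20, edgeR adjusted p = 0.0245). The Pcdha sum lost its call with limma-voom (-0.59, adjusted p = 0.0871), the block (-0.59, adjusted p = 0.0732), the length and GC correction (-0.46, edgeR adjusted p = 0.101) and both (-0.46, adjusted p = 0.0730). The Pcdhb sum gained one with DESeq2 (-0.47, adjusted p = 0.0163) and without a filter (-0.45, edgeR adjusted p = 0.0285).

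With each library left out in turn, all genes lower ran from 0 to 1214 and higher from 0 to 714, clustered members lower from 0 to 9, non-clustered members lower from 0 to 4 and higher from 0 to 1 (Pcdh12, without the first cuff library, edgeR adjusted p = 0.0133). The log2 fold change of the sum ran from -0.81 to -0.42 for Pcdha, -0.58 to -0.38 for Pcdhb and -0.32 to 0.067 for Pcdhg. Signs changed over these fits for Pcdhga2 (-0.12 to 0.35), Pcdh8 (-0.083 to 0.27), Pcdhb4 (-0.21 to 0.16), Pcdh1 (-0.32 to 0.39) and Pcdhgc5 (-0.046 to 0.89). With 1 library left in a group, it is assumed to vary like the other group's. With RLE scaling and with DESeq2, Pcdhb4 (-0.0020 and -0.0019) and Pcdh1 (-0.0091 and -0.0090) fell just below 0. With the length and GC correction, alone and with the block, the values were -0.26 and -0.24 for Pcdh1, -0.17 and -0.17 for Pcdh8, 0.054 and 0.056 for Pcdh17 and 0.11 and 0.11 for Pcdh10. The cause of these changes was not tested.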
